A study of Mus musculus with 4 samples.

Results

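Among the 28790 kept cells of a single-cell RNA-seq study of mouse muscle stem cells (MuSCs), 260 cells carried both RNA of mature muscle fibers and mitochondrial RNA. A cell belonged to this group if Ckm, Acta1, Mylpf, Tnnc2 and Tnnt3 together made up at least 1% of its unique molecular identifiers (UMIs, 1 per captured RNA molecule) and transcripts of the 13 mitochondrial genes (mt-) at least 2%. The 31254 deposited barcodes had been reduced to kept cells by requiring 1000 or more UMIs, 400 or more genes and less than 15% mt- UMIs. The cells were thus chosen by measured values, namely the UMI shares of these 5 genes and of mt- genes, so the levels of these 5 genes, of other fiber genes that follow them and of mt- genes are given as a description and not as a result.

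The study compared tdTomato+ cells sorted from hindlimb muscle of C57BL/6J mice aged 3 to 4 months, 14 days after tamoxifen. The α-cdKO mice were Ctnna1 fl/fl and Ctnna3 fl/fl, so that αE-catenin and αT-catenin, which tie cadherins to actin, were deleted by Pax7CreERT2, and carried a Rosa26 lox-stop-lox tdTomato reporter. Controls also carried Pax7CreERT2 and the reporter and received tamoxifen, but their α-catenin genes were not floxed. Each genotype had 2 samples, and each sample pooled 2 littermates. Pax7CreERT2 acts in Pax7-expressing cells and marks their descendants, including cells that have since lost Pax7, and the animals within a pool cannot be told apart by label. Values by sample are given in the order control 1, control 2, α-cdKO 1 and α-cdKO 2, called the sample order below. Kept cells numbered 5484, 5354, 9786 and 8166, and the deposited matrices held 48515992, 46099310, 73261352 and 74921651 UMIs. The UMIs counted were 3′ tags and need not lie in the deleted exons, so Ctnna1 and Ctnna3 UMIs do not check the knockout.

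Quiescent MuSCs lie against the muscle fiber and express the paired-box factor Pax7, and activation raises Myod1, a factor that drives the myogenic program. Cells that commit to differentiation turn on Myog and the fusion proteins myomaker (Mymk) and myomixer (Mymx). Young myocytes and new fibers first use developmental isoforms of the contractile proteins, such as cardiac actin (Actc1), cardiac troponin T (Tnnt2) and the embryonic and perinatal myosins (Myh3, Myh8), whereas adult fast fibers use skeletal actin (Acta1), which differentiating cells also begin to make, fast myosins (Myh4, Myh1) and fast troponins. Muscle creatine kinase (Ckm) and parvalbumin (Pvalb) serve energy supply and calcium buffering in the mature fiber. Dissociation of muscle breaks fibers, which are too large to enter a droplet whole. The question was therefore whether the 260 cells carried the genes of late myocytes or those of MuSCs beside the fiber RNA.

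The cells were unevenly spread over the samples. The samples held 12, 142, 78 and 28 of them, or 0.219%, 2.65%, 0.797% and 0.343% of kept cells. Control 2 stood apart from the other 3 samples and supplied 142 of the 260 cells, so results that rest on it are also given without it. The share was 1.44% ± 1.72 in controls and 0.570% ± 0.321 in α-cdKO (mean ± SD, n = 2 samples each), a log2 ratio of -1.33 with overlapping groups (two-sided exact permutation test, p = 1.0, where 0.3333 is the smallest value that 2 against 2 samples allow). Without control 2 the ratio turned to 1.38. Barcodes that passed the fiber threshold but held under 2% mt- UMIs, called mitochondria-poor fiber barcodes here, numbered 1070, or 1.99%, 12.9%, 2.16% and 0.723% of kept cells. They too were most frequent in control 2, but were lowest in α-cdKO 2, where the 260 cells were lowest in control 1. Of all kept cells past the fiber threshold, 9.92%, 17.1%, 27.0% and 32.2% held at least 2% mt- UMIs.

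**Figure D1:**
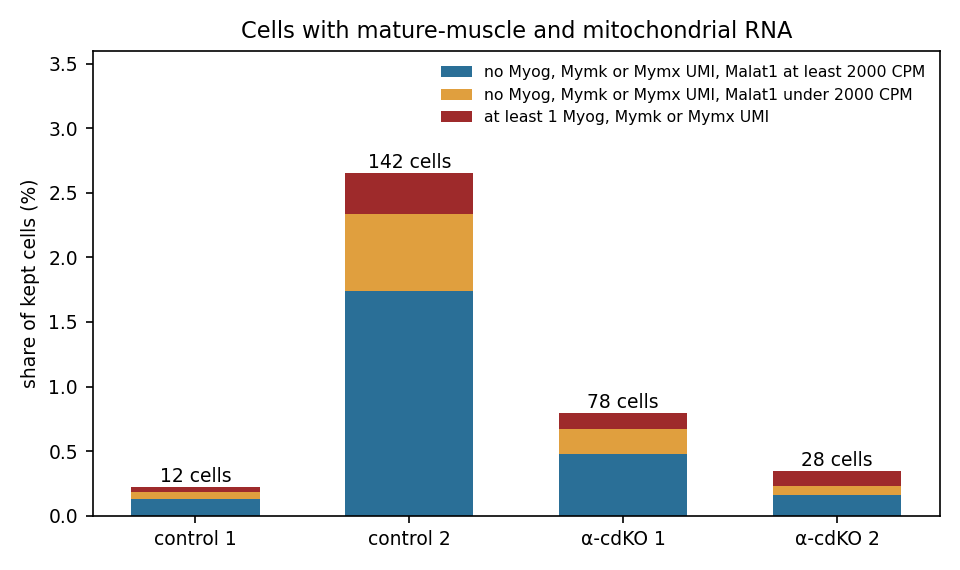
Share of kept cells (%) that held fiber RNA and mitochondrial RNA in each of the 4 samples, with the number of cells above each bar. Colours divide each bar by the presence of a Myog, Mymk or Mymx UMI and, among cells without one, by a Malat1 level of 2000 CPM (UMIs per 1000000 UMIs of the cell or class), and control 2 is highest at 2.65%.

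The median cell held 5481 UMIs from 1394.5 genes, with 4.05% of UMIs from the 5 fiber genes and 4.78% from mt- genes. Median depth was 12588, 2632.5, 5501 and 12038.5 UMIs in sample order, so the many cells of control 2 were also the shallowest. The fiber share spread widely, with quartiles at 1.76% and 9.09% and a highest value of 22.5%, and the mt- share reached from 2.02% to 14.2%. Neither threshold fell in a gap between populations. The nearest cell below 1% fiber UMIs held 0.995% and the nearest above held 1.01%, and on the mt- axis the neighbours held 1.94% and 2.02%. No cell barcode of the 260 was shared between samples within the group, and 3 were also kept in another sample, of 101 such shared kept barcodes in all.

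Myog, Mymk and Mymx separated the cells into a small and a large class. At least 1 UMI of the 3 genes was present in 40 of 260 cells (15.4%, exact 95% interval 11.2% to 20.4%, counting error only), with 2, 17, 12 and 9 cells in sample order. These are called committed cells below, and the other 220 cells, 10, 125, 66 and 19 by sample, uncommitted. Myog, which encodes myogenin, was found in 39 of the 40, Mymk in 25 and Mymx in 6. Of the 40, 8 rested on a single UMI. Such a UMI was also present in 43 of 1070 mitochondria-poor fiber barcodes (4.02%), as a single UMI in 32 of them. The name committed thus states only that such a UMI was present. Pooled over samples, committed cells were deeper, with a median of 13233.5 UMIs against 5034.5, which by itself gives a cell more chance of such a UMI. By sample the medians were 7024.5, 1883, 11959.5 and 18419 UMIs in committed cells. In uncommitted cells they were 14490.5, 2808, 5354.5 and 7435, so committed cells were shallower in both controls. Their fiber share was lower, with a median of 1.59% against 4.76% in uncommitted cells.

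Stem cell transcripts lay on the other side of this division. Pax7 UMIs were present in 43 of 220 uncommitted cells and in 0 of 40 committed cells. In α-cdKO 1 and α-cdKO 2, where committed cells were deeper, Pax7 was present in 10 of 66 and 7 of 19 uncommitted cells. In both controls committed cells were shallower. Myf5, an early myogenic factor of MuSCs, was found in 81 uncommitted and 4 committed cells. At least 1 UMI of Pax7 or Myf5 was present in 96 uncommitted cells, and 4 cells in all held both a stem cell UMI and a commitment UMI. The remaining 124 cells held neither. Myod1, which is shared by activated MuSCs and committing cells, was found in 69 of 220 uncommitted and 29 of 40 committed cells.

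These shares were set at equal depth by drawing 2000 UMIs from each cell, which leaves out 65 uncommitted and 12 committed cells that are shallower. Pax7 was then found in 10.3% of 155 uncommitted cells (exact interval 6.02% to 16.2%) and in 0 of 28 committed cells, a count that allows up to 10.7%. Among 26626 other kept cells, which held under 1% fiber UMIs and no Mymk UMI, the share was 12.6%. A background was read from cells of another type. In 136 cells with endothelial markers, which should lack Pax7, Pax7 was still found in 4.41% and Myf5 in 13.2%, beside 23.9% for Myf5 in uncommitted cells. The endothelial-marker cells had a median depth of 7503 UMIs before drawing, and whether free RNA or shared droplets gave them these UMIs was not tested. Mitochondria-poor fiber barcodes held Pax7 in 0 of 731 cells at this depth, which allows up to 0.410%. Myog was found in 85.7% of committed cells, as the class requires, against 0.612% of other cells and 0 of the endothelial-marker cells, which allows up to 2.21%. Myod1 was found in 64.3% of committed cells, 19.4% of uncommitted cells, 29.7% of other cells and 10.3% of endothelial-marker cells. Myh3, the embryonic myosin, was found in 7.14% of committed and 0 of 155 uncommitted cells, which allows up to 1.94%. The committed cells with Myh3 were 1 in control 1 and 1 in control 2. Actc1 was found in 71.4% of committed, 5.81% of uncommitted and 0.180% of other cells, and the uncommitted cells with it were 0 of 7, 7 of 75, 2 of 57 and 0 of 16 by sample. Myh4, the adult fast myosin, was found in 50.3% of uncommitted cells and 66.1% of mitochondria-poor fiber barcodes. In committed cells it was found in 21.4%, a share that rested on control 2, since by sample 0 of 2, 5 of 8, 1 of 9 and 0 of 9 held it.

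**Figure D2:**
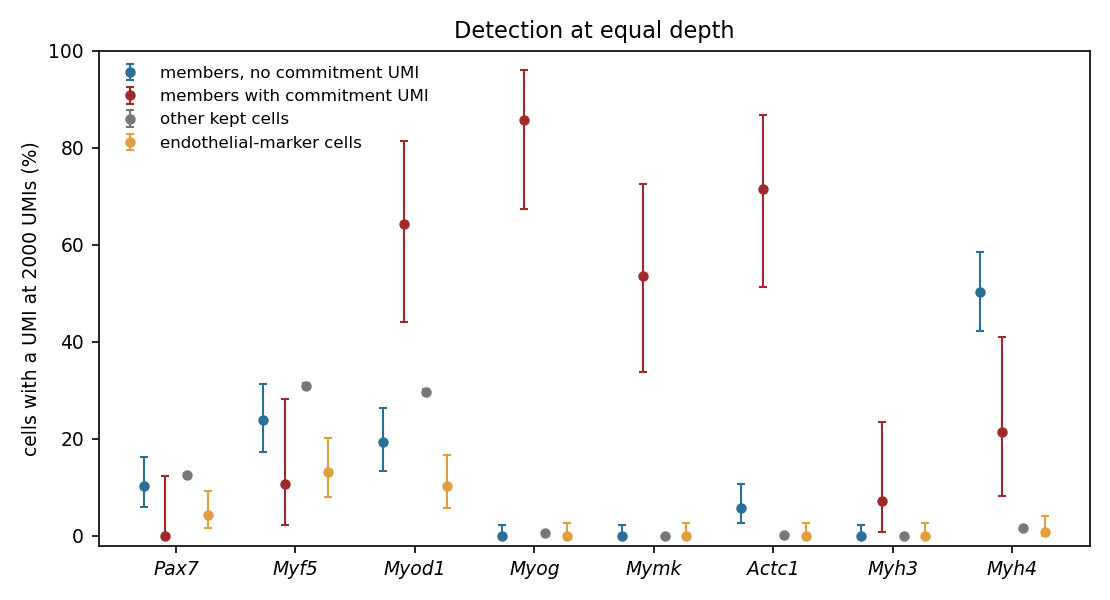
Share of cells (%) with at least 1 UMI of each gene after drawing 2000 UMIs per cell, for uncommitted cells (no commitment UMI), committed cells, other kept cells and endothelial-marker cells, as points with exact 95% intervals. Pax7 was found in 10.3% of uncommitted and in none of 28 committed cells, and Actc1 in 5.81% and 71.4%.

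The 5 fiber genes themselves differed in make-up between the classes. Ckm belongs to the mature fiber, Actc1 and Myh3 to the developmental program, and Acta1 to both differentiating cells and fibers, so the 250 bases before their start sites are shown for the 4 promoters (RefSeq, GRCm38.p6, read 5′ to 3′ on the gene's strand, with CANNTG E-boxes, the letters that myogenic bHLH factors such as MyoD and myogenin recognise, in capitals).
Ckm, chr7:19410844-19411093, plus strand: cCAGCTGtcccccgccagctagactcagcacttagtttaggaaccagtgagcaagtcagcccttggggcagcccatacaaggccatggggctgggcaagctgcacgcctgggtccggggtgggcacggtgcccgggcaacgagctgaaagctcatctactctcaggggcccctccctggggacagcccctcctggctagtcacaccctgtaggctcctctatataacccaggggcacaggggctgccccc
Acta1, chr8:123894776-123895025, minus strand: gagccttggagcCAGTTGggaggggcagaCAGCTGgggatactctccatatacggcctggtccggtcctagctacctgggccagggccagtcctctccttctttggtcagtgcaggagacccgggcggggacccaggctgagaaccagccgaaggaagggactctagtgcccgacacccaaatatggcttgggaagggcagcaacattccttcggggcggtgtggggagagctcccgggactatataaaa
Actc1, chr2:114052876-114053125, minus strand: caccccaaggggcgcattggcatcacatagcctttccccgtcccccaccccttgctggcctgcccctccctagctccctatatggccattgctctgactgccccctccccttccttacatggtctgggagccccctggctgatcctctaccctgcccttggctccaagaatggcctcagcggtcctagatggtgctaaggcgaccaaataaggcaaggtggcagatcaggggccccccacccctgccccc
Myh3, chr11:67078050-67078299, plus strand: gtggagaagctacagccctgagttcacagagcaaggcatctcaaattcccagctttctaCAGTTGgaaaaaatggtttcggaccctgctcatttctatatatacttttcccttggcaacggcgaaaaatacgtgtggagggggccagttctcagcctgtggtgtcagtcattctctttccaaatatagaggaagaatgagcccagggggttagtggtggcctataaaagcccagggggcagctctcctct
An E-box, which reads the same on both strands, was present once in the windows of Ckm and Myh3, in 2 copies in that of Acta1 and not in that of Actc1. A CArG box, the site of serum response factor, was present in the windows of Acta1 and Actc1. These letters are common, and 66.2% of the 32851 promoters in the table hold at least 1 E-box, whereas 1.47% hold a CArG box.

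In uncommitted cells Acta1 made up 30.8%, 28.0%, 33.2% and 31.2% of the UMIs of the 5 genes in sample order. In mitochondria-poor fiber barcodes the values were 31.4%, 28.4%, 31.5% and 33.2%. Over all 5 genes, the share that would have to change hands to turn the make-up of uncommitted cells into that of mitochondria-poor fiber barcodes of the same sample was 1.04, 1.12, 2.60 and 2.08 percentage points, against 65.8, 58.1, 56.3 and 62.4 points for kept cells with a Mymk UMI and under 1% fiber UMIs. In those Mymk-positive cells the 5-gene RNA was nearly all Acta1, at 96.6%, 86.0%, 89.5% and 93.6%. The little fiber RNA of other cells also lay near the fiber make-up, at 8.85, 2.90, 0.795 and 13.8 points from that of uncommitted cells.

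Committed cells split by sample. Acta1 made up 90.8% and 95.2% of the 5 genes in committed cells of α-cdKO 1 and α-cdKO 2, at 2.45 and 1.85 points from the Mymk-positive cells of the same sample. In the committed cells of control 1 and control 2 it made up 36.9% and 46.2%, and the distances from Mymk-positive cells were 60.2 and 39.9 points. From mitochondria-poor fiber barcodes these cells lay 26.6 and 17.7 points away, so they matched neither make-up closely. In control 1 Mylpf made up 33.4%, Tnnc2 27.2% and Tnnt3 1.87% of the 5 genes. Ckm gave 0.622%, 10.3%, 2.25% and 1.23% of the 5 genes in committed cells and 11.5%, 13.6%, 13.1% and 13.6% in uncommitted cells. Control 1 held only 2 committed cells, so its committed values describe those 2 cells.

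**Figure D3:**
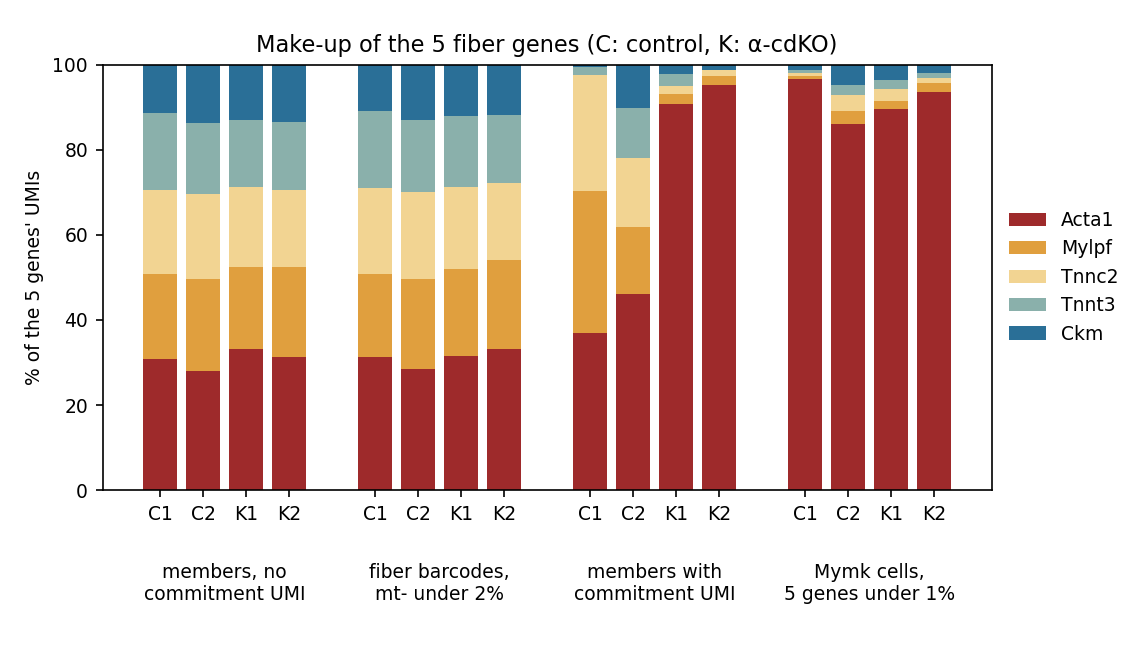
Make-up of the UMIs of Ckm, Acta1, Mylpf, Tnnc2 and Tnnt3 (% of the 5) in each sample as stacked bars for control (C1, C2) and α-cdKO (K1, K2) samples, in uncommitted cells, mitochondria-poor fiber barcodes, committed cells and Mymk-positive cells. Uncommitted cells follow the mitochondria-poor fiber barcodes in each sample, and committed cells of α-cdKO follow the Mymk-positive cells.

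Single cells showed the same division. All 5 genes were present in 217 of 220 uncommitted cells, and Acta1 made up at least 80% of the 5 in 4 of them. Among 40 committed cells, 23 reached 80% Acta1, with 0, 4, 10 and 9 by sample, and 17 did not, with 2, 13, 2 and 0. The 23 Acta1-rich cells held a median of 36 UMIs of Myog, Mymk and Mymx and 17039 UMIs in all. Actc1 was present in 20 of them, Myh3 or Myh8 in 13 and Myh4 in 1. The other 17 held a median of 5 commitment UMIs and 2579 UMIs in all, 6 of them rested on 1 commitment UMI, and Actc1 was present in 7, Myh3 or Myh8 in 3 and Myh4 in 7. Ranked by fiber share, commitment UMIs were found in 32 of the 74 cells with 1% to 2% fiber UMIs, in 3 of 55 with 2% to 4%, in 5 of 53 with 4% to 8% and in 0 of 78 with more. Below the threshold the share with a commitment UMI was 37.9% of 124 cells with 0.5% to 1% fiber UMIs, close to the 43.2% just above it, and 2.98% of 27134 cells under 0.5%.

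**Figure D4:**
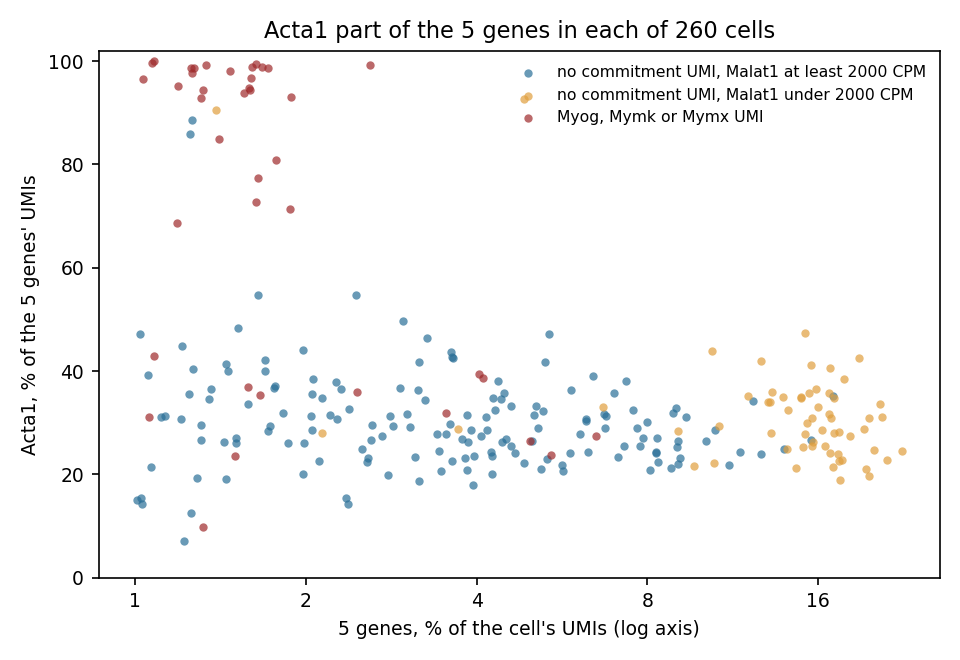
Acta1 share of the UMIs of the 5 fiber genes (%) against the 5-gene share of all UMIs (%, log axis) for the 260 cells, with 1 point a cell, coloured by commitment UMI and, without one, by Malat1 level. Of 40 committed cells, 23 lie at or above 80% Acta1, and 4 of 220 uncommitted cells do.

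Developmental myosins made up 0%, 0%, 0% and 0.629% of the myosin heavy chain UMIs of uncommitted cells, as Myh3 and Myh8 together, in sample order. In committed cells they made up 30.3%, 12.7%, 75.0% and 86.5%, from 20, 26, 9 and 32 UMIs of Myh3 and Myh8 beside 46, 179, 3 and 5 of adult myosins. In Mymk-positive cells they made up 71.0%, 55.6%, 80.3% and 57.4%, from 22, 20, 143 and 74 beside 9, 16, 35 and 55. Mitochondria-poor fiber barcodes were at 0.0506%, 0.0120%, 0.0222% and 0.450%. With so few UMIs no order between committed and Mymk-positive cells is read from these values. Actc1 made up 0.0476%, 0.336%, 0.329% and 0.186% of Actc1 and Acta1 UMIs in uncommitted cells and 1.11%, 17.0%, 7.31% and 14.7% in committed cells, and 30.1%, 41.7%, 37.2% and 39.2% in Mymk-positive cells.

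Committed and uncommitted cells were compared with edgeR's quasi-likelihood test on UMIs summed per sample and class, with the sample as a block and without Myog, Mymk and Mymx. Of 2912 genes tested, 185 were higher in committed cells (6.35% of all tested) and 306 lower (10.5%), at a Benjamini-Hochberg adjusted p under 0.05, with a median log2 fold change of -0.08 over all genes. Scaling by library size alone gave 317 higher and 224 lower and a median of 0.23. Without control 2 the counts were 112 and 193 of 2410 genes. On a list of 10 developmental muscle genes, 6 of the 7 tested rose, with a median log2 fold change of 5.40, and none fell.

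Actc1 was at 142, 2482, 1152 and 2247 CPM in committed cells in sample order, and at 7.26, 51.4, 63.3 and 23.0 CPM in uncommitted cells. All committed values lay above all uncommitted values (log2 fold change 4.97, SE 0.56, edgeR adjusted p = 0.00022). In control 2, however, Actc1 was present in 8 of the 17 committed cells. These 17 cells held 179700 UMIs in all at a median of 1883, so the committed levels of control 2 here and below weigh its deeper cells most. Tnnt2 was at 214, 189, 489 and 270 CPM in committed cells and had no UMI in any uncommitted cell, at least 151-fold higher against a limit of 3 UMIs over the group. Myh3 was at 285, 22.3, 60.2 and 67.4 CPM and also had no UMI in uncommitted cells, at least 28.1-fold higher. Myh8 was at 1139, 122, 7.53 and 112 CPM (log2 fold change 6.71, adjusted p = 0.00027) and was lowest in α-cdKO 1. The atrial and embryonic light chain Myl4 was at 4128, 134, 105 and 95.5 CPM, with the 2 cells of control 1 far above the rest. Without control 2 the log2 fold change was 4.77 for Actc1, 6.03 for Myh8 and 7.68 for Myl4, each still called.

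Of 6 further commitment genes tested 2 rose (Cdkn1c and Tmem182), 1 fell (Myf6, by 3.64) and 3 did not pass, with a median log2 fold change of 0.74. Cdkn1c, a cell cycle inhibitor of differentiating muscle, was at 71.2, 7407, 12330 and 11120 CPM in committed cells and at 7.26, 14.1, 56.3 and 17.3 CPM in uncommitted cells (log2 fold change 8.10, adjusted p = 0.00013). The acetylcholine receptor subunit Chrna1 rose with a log2 fold change of 3.07 and smooth muscle actin (Acta2), which early myocytes also make, with 4.43. Capn6, a calpain-family gene, had no UMI in uncommitted cells and was at least 64.3-fold higher. Myod1 was at 712, 395, 1589 and 859 CPM in committed cells and 312, 502, 152 and 248 CPM in uncommitted cells, higher in 3 of 4 samples, and its difference did not pass (log2 fold change 1.16, adjusted p = 0.20).

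Most of the listed stem cell and adult fiber genes were lower in committed cells. On a list of 15 stem cell genes, 11 of the 13 tested fell and none rose, with a median log2 fold change of -3.07. Pax7 was at 87.2, 55.3, 23.5 and 86.4 CPM in uncommitted cells and had no UMI in committed cells, at least 8.85-fold lower. The surface protein Cd34 (at least 9.30-fold lower) and the BMP antagonist Chrdl2 (at least 17.3-fold lower) also had no UMI there. Myf5 fell by 3.09 and the adhesion molecule Vcam1 by 3.69 on the log2 scale. The summed level of the stem list nevertheless overlapped between the classes, since desmin (Des), a stem list gene that differentiated muscle shares, was the most abundant list gene in committed cells, at 5623, 1046, 1491 and 1432 CPM. In uncommitted cells Sdc4 was the most abundant, at 2063, 1771, 1881 and 2949 CPM. Outside the lists the named falls were Cxcl3 (at least 24.4-fold), Col5a2 (at least 10.5-fold), Ptx3 (at least 10.2-fold), Slc10a6 (at least 9.85-fold), Neu2 (at least 9.41-fold) and Tnfaip6. Of 8 activation and 9 immediate early genes tested, 2 of each fell and none rose. Of 18 adult fast fiber genes 12 fell and 1, the giant sarcomere protein titin (Ttn), rose by 2.33. Myh4 was at 450, 2367, 1930 and 668 CPM in uncommitted cells and 0, 996, 7.53 and 0 CPM in committed cells, and fell by 4.96. Of the 5 genes of the rule 4 were lower in committed cells, namely Ckm (by 4.20), Tnnt3 (by 4.62), Tnnc2 (by 3.28) and Mylpf (by 3.15), while Acta1 differed by -0.59 (adjusted p = 0.20). The 5 genes have a joint floor in both classes, and their median share was 1.59% in committed and 4.76% in uncommitted cells. The values of these genes and of the other adult fiber genes thus describe the make-up. They stayed in the test and in its count of lower genes.

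**Figure D5:**
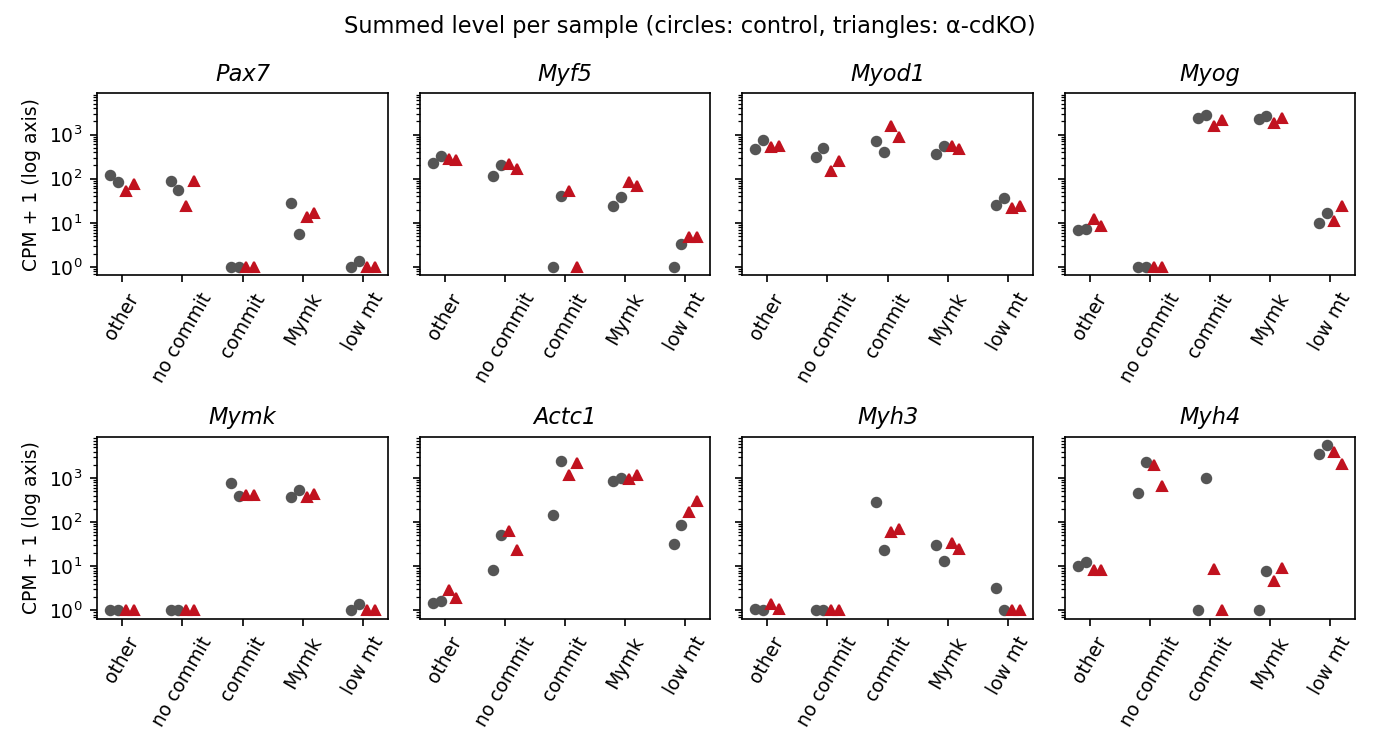
Levels of 8 stem cell, commitment, developmental and adult fiber genes (CPM + 1, log axis), with 1 point a sample (circles, control; triangles, α-cdKO), in other cells, uncommitted cells (no commit), committed cells (commit), Mymk-positive cells and mitochondria-poor fiber barcodes (low mt). Pax7 is at 23.5 to 87.2 CPM in uncommitted cells and at 0 in committed cells, and Actc1 lies at 7.26 to 63.3 and 142 to 2482 CPM.

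All 260 cells were next set against the other 26990 kept cells under 1% fiber UMIs. By edgeR, 1506 of 13521 genes were higher (11.1%) and 1576 lower (11.7%), with a median log2 fold change of -0.26, and with library size alone 1776 and 794. Without control 2 the counts were 1027 and 832 of 13325 genes. The 5 genes of the rule were left out, and other adult fiber genes such as Myl1 (log2 fold change 7.52) were higher as the rule requires. Actc1 (8.55), Tnnt2 (7.97), the sarcomere adaptor Klhl41 (7.78) and the muscle membrane protein Tmem182 (7.73) had higher log2 fold changes than Myl1, and commitment genes were higher in 7 of 10, Mymk among them because the other cells were chosen without it, and 1, Cdkn1a, was lower. Of 9 developmental genes 8 were higher and 1, Ncam1, was lower. Of 15 stem cell genes 12 were lower and 1, Des, was higher, with a median of -0.82, including Pax7 by -1.10 and Myf5 by -1.19. All 10 activation genes were lower, with a median of -0.89, and so were the 9 immediate early and 8 chaperone genes. The call of Myod1, an activation gene, was lost in several alternatives. Of the 4 nuclear-retained RNAs, Malat1 and Meg3 were lower and Neat1 and Xist did not pass. S100a9, a neutrophil gene, was at 504, 385, 35.1 and 135 CPM in other cells and had no UMI in the 260, at least 146-fold lower with UMIs pooled over the samples and the rule and mt- genes left out. The 260 cells mix both classes, so the uncommitted cells were also tested alone, a comparison added after the data were seen.

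Most stem cell genes did not pass a test of uncommitted against other cells. By edgeR 1210 of 13358 genes were higher (9.06%) and 809 lower (6.06%), with a median log2 fold change of -0.26. Of the 15 stem cell genes, 11 did not pass, 3 were lower and 1, Des, was higher, with a median of -0.45. Pax7 was at 87.2, 55.3, 23.5 and 86.4 CPM against 119, 82.5, 52.0 and 75.9 in other cells, with overlapping groups (log2 fold change -0.58, SE 0.24, adjusted p = 0.090). Endothelial-marker cells held Pax7 at 78.4, 45.3, 22.3 and 53.8 CPM, from 34, 5, 7 and 22 UMIs, and Myf5 at 143, 27.2, 172 and 232 CPM. Pax7 in uncommitted cells lay above this background in each sample, by a small margin in all but α-cdKO 2, and Myf5 lay below it in control 1 and α-cdKO 2, so these levels alone do not set uncommitted cells apart from background. Cd34 differed by 0.00 (SE 0.25, adjusted p = 0.998). Myf5 was at 116, 200, 216 and 167 CPM against 230, 322, 281 and 259, lower in each sample, and fell by 0.70 (adjusted p = 0.0014). Vcam1 fell by 0.65 and the syndecan Sdc4 by 0.34. In α-cdKO 2, however, both were higher in uncommitted cells, at 587.5 against 500.7 and 2949 against 2640 CPM.

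Activation and stress genes were lower in uncommitted cells. Of 10 activation genes 8 fell and none rose, with a median log2 fold change of -0.92, and Myod1 fell by 1.09 and the chemokine Cxcl1 by 1.15. All 9 immediate early genes (median -0.87) and all 8 chaperone genes (median -0.91) fell, among them Fos by 1.35 and Hspa1a by 1.26. These transcripts are known to rise during dissociation of muscle. Metallothionein 1 (Mt1) was at 18790, 13970, 12660 and 18570 CPM and fell by 0.44. Malat1, a long RNA kept in the nucleus, was at 19680, 18350, 18840 and 23130 CPM against 31330, 26090, 27320 and 23370 in other cells, and fell by 0.52. The 18 adult fast and 14 fiber metabolism genes tested all were higher, which follows from the rule. The myogenic transcription factors Mef2c (log2 fold change 5.70) and Myf6 (4.56) were higher too, and so was Actc1 (5.28), whose level in uncommitted cells reached 63.3 CPM at most. Mitochondria-poor fiber barcodes held Mef2c and Myf6 at means of 478 and 141 CPM. Of 8 commitment genes tested 3 were higher and 3 lower, Myog among the latter because the class was chosen without it. Of 10 cell cycle genes 4 fell. Meg3, a nuclear-retained RNA like Malat1, fell by 0.53. Neat1 also passed as lower, by 0.58, but was higher in α-cdKO 2, at 426 against 320 CPM. Xist passed as lower by 0.91, a call that rested on α-cdKO 1, the only sample where uncommitted cells held its UMIs.

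Malat1 divided the uncommitted cells further. With a boundary of 2000 CPM, set after the values were seen, 160 uncommitted cells were Malat1-rich (7, 93, 47 and 13 by sample) and 60 Malat1-poor (3, 32, 19 and 6), and 41 of the 60 had no Malat1 UMI. The boundary was not empty, and 24 of the 260 cells lay between 1000 and 4000 CPM. Malat1-rich cells held a median of 7868.5 UMIs, 1844 genes and 3.61% fiber UMIs, and 94 of them (58.8%) held a Pax7 or Myf5 UMI. Malat1-poor cells held 1977 UMIs, 656.5 genes and 15.7% fiber UMIs, and 2 (3.33%) held one. Of the 78 cells with at least 8% fiber UMIs, 55 lay under the boundary. In the make-up of the fiber RNA Acta1 stood at 29.8% of the 5 genes in the rich and 30.7% in the poor cells. Summed activation genes were at 28220, 23870, 20900 and 31300 CPM in Malat1-rich cells and 992, 8935, 438 and 304 CPM in Malat1-poor cells. Stem genes other than Des were at 3333, 3556, 3250 and 4904 CPM and at 397, 849, 83.5 and 76.1 CPM. Control 2 had the highest level of both lists in Malat1-poor cells and held both of the Malat1-poor cells with a Pax7 or Myf5 UMI. Pooled over samples the activation sums were 24350 and 5513 CPM, and without control 2 they were 24830 and 454 CPM. Without control 2 the share with a Pax7 or Myf5 UMI was 74.6% of 67 Malat1-rich cells and 0 of 28 Malat1-poor cells. For comparison, 98.6% of mitochondria-poor fiber barcodes, 7.45% of Mymk-positive cells and 4.32% of other cells lay under the boundary, as did 7 of 40 committed cells. The test of uncommitted against other cells summed the UMIs of Malat1-rich and Malat1-poor cells. Its values thus weigh the more numerous and deeper Malat1-rich cells most.

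Against the 1070 mitochondria-poor fiber barcodes, which share the fiber threshold, the 260 cells differed in genes across the transcriptome. By edgeR, 2181 of 5175 genes were higher (42.1%) and 1821 lower (35.2%), with a median log2 fold change of 0.19. Pax7 had 0, 1, 0 and 0 UMIs in the fiber barcodes in sample order, against 79.1, 44.9, 17.9 and 42.7 CPM in the 260 cells (log2 fold change 6.46, adjusted p = 4.3e-09). Of 14 stem genes tested, 13 rose and 1, Des, fell, with a median of 5.57. All 8 activation, 9 immediate early and 8 chaperone genes tested rose, with medians of 5.08, 3.75 and 4.97. Malat1 was at 90.8, 603, 566 and 50.1 CPM in the fiber barcodes and rose by 6.03 in the 260 cells. The Notch target Heyl (at least 66.1-fold) and the actin regulator Marcksl1 (at least 160-fold) had no UMI in fiber barcodes. Of 8 commitment genes tested 4 rose, among them Myog by 4.72 and Cdkn1c by 5.47 (higher in 3 of 4 samples), 2 fell and 2 did not pass. Those that fell were Myf6 by 2.06 and Mef2c by 1.24, each lower in all 4 samples. Of the 4989 Cdkn1c UMIs of the 260 cells, 4950 lay in committed cells. Uncommitted cells, which have no Myog UMI by definition, held Cdkn1c at 7.26, 14.1, 56.3 and 17.3 CPM. Fiber barcodes held it at 15.9, 31.0, 28.1 and 50.1 CPM, so uncommitted cells were higher only in α-cdKO 1. Of 8 developmental genes 7 rose and 1, Myl4, fell by 1.14. In CPM Myl4 was lower only in control 2 and α-cdKO 2, at 33.4 and 51.2 against 163 and 216. Of 18 adult fast genes 17 fell, with a median of -2.37, including Myh4 by 2.42, and 7 of 8 slow fiber genes fell, including the slow light chain Myl2 by 3.38. Actc1 rose by 1.25 but was higher in 3 of 4 samples, and turned to -0.57 among cells with at least 2% fiber UMIs. In uncommitted cells Actc1 lay below the fiber barcodes in each sample. The levels were 7.26, 51.4, 63.3 and 23.0 against 31.8, 86.2, 169 and 308 CPM.

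Against the 470 Mymk-positive cells, most stem cell genes were higher in the 260 cells and commitment genes went both ways. By edgeR, 802 of 6924 genes were higher (11.6%) and 437 lower (6.31%), with a median log2 fold change of -0.02, and with library size alone 678 and 576. Without control 2 the counts were 340 and 110 of 5665 genes. Of 15 stem genes 11 rose and 1 fell, with a median of 1.65, among them Pax7 (1.78), Myf5 (1.52), Cd34 (3.11) and Heyl (2.41). M-cadherin (Cdh15) fell by 0.76 with an adjusted p of 0.042, a call that was lost in 8 of 11 alternatives. Of 8 commitment genes tested 2 were higher, 3 lower and 3 did not pass, with a median of -0.08. Myog was at 2260, 2602, 1853 and 2355 CPM in Mymk-positive cells and fell by 2.07, and the developmental gene Chrna1 fell by 1.79. Cdkn1c fell by 2.60 (adjusted p = 0.034, lost in 5 alternatives). Of 9 developmental genes 1 fell and 8 did not pass, with a median of 0.03, and Actc1 differed by -1.23 (adjusted p = 0.080). The late myogenic factor Myf6 was higher by 4.29 and Mef2c by 1.54. Mitochondria-poor fiber barcodes carried both genes, at means of 141 and 478 CPM, and committed cells held 2 Myf6 UMIs in all. Whether fiber RNA gave these rises was not tested. All 18 adult fast genes were higher, as the fiber threshold requires, including Pvalb by 8.67.

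Between genotypes no gene of the 260 cells passed. Of 4298 genes tested with edgeR, 0 were higher and 0 lower in α-cdKO (0.0% each), 191 had an unadjusted p under 0.05, and DESeq2 called 1. Tnnt2 was at 22.6 and 36.8 CPM in controls and 122 and 136 CPM in α-cdKO on the scale of the test (log2 fold change 1.95, SE 0.37, edgeR adjusted p = 0.55). Acta2 differed by 2.83, the growth arrest gene Gas1 by -1.59 and the chaperone Dnajb1 by -1.48, each with the same adjusted p and without overlap between genotypes. Committed cells made up 2 of 12, 17 of 142, 12 of 78 and 9 of 28 of the cells in sample order. All Tnnt2 UMIs lay in committed cells, since uncommitted cells had none. Without committed cells, a fit added after the data were seen, Acta2 differed by 1.42, Gas1 by -1.34 and Dnajb1 by -1.35, none called, and 2 other genes were called. In these sums fewer cells of a class and less RNA per cell cannot be told apart.

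Cells that share a droplet can also hold both kinds of RNA. The Scrublet doublet score placed 107 of 220 uncommitted cells (48.6%) among the top-scoring cells of their sample, against 5 of 40 committed cells (12.5%), 6.04% of other cells, 4.68% of Mymk-positive cells and 0.467% of mitochondria-poor fiber barcodes. Among Malat1-rich uncommitted cells the share was 65.0%, and among Malat1-poor ones 5.00%. Without top-scoring cells 148 of the 260 remained. The score is built from simulated pairs of the same cells, so it rises with the presence of 2 RNA profiles in 1 barcode, and the part of doublets in these results was not tested. Xist and Y-linked UMIs, which would meet where a female and a male cell share a droplet, were both common only in α-cdKO 1, where 1 of 66 cells thinned to equal depth (1.52%) and 1.13% of other cells held both. Of 139 mitochondria-poor fiber barcodes of that sample at this depth, 1 held Xist alone and 9 Y-linked UMIs alone. Fiber material thus seldom carries these UMIs, and this count cannot show droplets shared by a cell and fiber material. Endothelial-marker cells, which are not muscle cells, passed both thresholds in 2 of 127 cases with at least 2% mt- UMIs (1.57%, exact interval 0.191% to 5.57%), against 0.942% of all other cells. Both came from control 2, where they were 2 of 16 (12.5%) against 3.04% of its other cells, and the other samples gave 0 of 35, 0 of 36 and 0 of 40.

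Markers of other cell types were also summed. The 6 erythroid markers had no UMI in any of the 260 cells. The 8 endothelial markers summed to 0, 96.4, 2.35 and 0 CPM in uncommitted cells by sample and to 0 in committed cells, and in control 2 all 8 were present, with Flt1 highest at 24.4 CPM. Other cells held 44.5, 21.5, 22.6 and 20.2 CPM, so uncommitted cells of control 2 lay above and those of the other samples below. Immune markers summed to at most 7.53 CPM in either class and glial markers to at most 39.3 CPM. Markers of fibro-adipogenic progenitors summed to 901, 678, 795 and 950 CPM in uncommitted cells, below the 1022, 1115, 1079 and 1432 CPM of other cells, with 3 to 5 of the 8 markers present and Gsn or Col3a1 highest. Their defining receptor gene Pdgfra had no UMI in the 260 cells. The 6 tendon markers summed to at most 65.4 CPM in uncommitted and 71.2 CPM in committed cells. Mural cell markers summed to 1068, 3200, 7220 and 9151 CPM in committed cells, nearly all of it Acta2 at 997, 3178, 7198 and 9089 CPM, while Rgs5, Pdgfrb, Myh11 and Kcnj8 had no UMI in committed cells. Each sample held 2 of the 8 markers there, Acta2 with either Abcc9 or Notch3. In uncommitted cells the mural markers summed to 145, 265, 556 and 121 CPM against 252, 283, 420 and 288 CPM in other cells. Control 2 held all 8 in uncommitted cells, with the pericyte gene Rgs5 at 82.2 CPM (64 UMIs) against 10.6 CPM in its other cells, and the part of such cells in its values was not tested.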

How the data were processed

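The authors deposited 1 filtered matrix of UMI counts per sample (raw counts, not normalised). Per the file header it was made with Cell Ranger 7.1.0, and the submitters' processing notes name GRCm38 and mm10 as genome builds and Seurat 4.0.3. Cells were kept by the study's own thresholds on UMIs (1000), genes (400) and mt- share (15%). Reads from 3′ tags were counted per gene by the authors, so isoforms of a gene were not separated and near-identical genes may share reads.

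The members, the gene lists and the tests were chosen with earlier results of these data known. The Malat1 boundary and the comparisons without committed cells were added after the values were seen. Cells are not replicates, so counts were added up over the cells of each sample and class before testing with edgeR 4.0.16 (R 4.3.3, limma 3.58.1) by the quasi-likelihood test with TMM scaling and filterByExpr, with the sample as a block except between genotypes. Samples are separate pools of 2 littermates. The 5 genes of the rule and the mt- genes were left out of the counts and library sizes of comparisons with cells outside the 260. Levels given as CPM use all UMIs. Genes were named if they belonged to a list or were among up to 10 higher and up to 10 lower genes with the largest log2 fold change, adjusted p under 0.05, at least 50 CPM in the higher group and 1 direction in all samples (between genotypes, at least 20 CPM without overlap); mt-, ribosomal, Gm and Rik genes stayed out. Intervals are exact binomial (Clopper-Pearson) at 95%, and with the limit of 3 counts for a share of 0 they cover counting error only. No doublets were removed. Scrublet scores (scanpy 1.11.5) were computed per sample, their automatic threshold marked 10 cells, 6 of them members, and top-scoring cells were taken as 0.8% per 1000 cells. Alternatives were DESeq2 1.42.0, library size scaling, no filter on low counts, other thresholds, no block, top-scoring cells removed, thinned cells and leaving out each sample. The planned edgeR comparisons were also run on simulated data with known changes, drawn with the spread of the fitted data. The comparisons without committed cells were not. Python 3.11.15, numpy 2.4.6, scipy 1.17.1, pandas 2.3.3 and matplotlib 3.10.9 were used for the rest.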

Additional observations from a re-analysis of the deposited data

How the results depend on the processing

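Of 683 values of 60 named-gene results under the alternatives, 635 kept their direction and their side of the threshold, 32 lost the call, 14 gained it and 2 reversed, and 40 of the 60 results kept both in every alternative run. The reversals were Actc1 with at least 2% fiber UMIs, at -0.85 between genotypes and -0.57 against mitochondria-poor fiber barcodes. The genotype ratio of shares reversed to 1.38 without control 2 and ranged from -2.22 to 1.38 when 1 sample was left out. Between genotypes 0 genes were called, against 1 with DESeq2, 72 without a filter, 2 with at least 2% fiber UMIs, 2 without committed cells and 2 to 29 without 1 sample. The fit with the replicate number as a block called 2, but the labels do not tie equal numbers together and the deviations of same-numbered samples correlated at 0.119 over 4298 genes, from 2 pairs. Against other cells 3082 genes became 2019 without committed cells and 1823 to 2766 without 1 sample. Against Mymk-positive cells 1239 became 1953 with at least 2% fiber UMIs, 555 without top-scoring doublets and 450 to 1434 without 1 sample. The 4002 genes against mitochondria-poor fiber barcodes became 2904 to 4390. The 491 between committed and uncommitted cells became 231 to 552 and, with cells thinned to 2000 UMIs, 26 of 306 tested. With at least 2% fiber UMIs this comparison could not be fitted, since a sample had no committed cell left. At 1000 UMIs and without thinning, the share of the cells with Pax7 went from 8.74% to 3.08% and 16.5%, that with Myod1 from 26.2% to 19.2% and 37.7%, and that with Myh3, without thinning, from 1.09% to 4.23%. Myod1's fall against other cells was lost in 6 of 13 alternatives, and Pax7's when committed cells were left out. With 2 samples a genotype and 40 committed cells, depth limits what these tests can detect, and the causes of these changes were not tested.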

Other observations

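Barcodes removed by the thresholds on UMIs, genes and mt- share also held fiber RNA. In the order control 1, control 2, α-cdKO 1 and α-cdKO 2, 46, 403, 95 and 25 removed barcodes held at least 1% of UMIs from the 5 fiber genes. Of these, 12, 251, 28 and 8 held at least 2% mt- UMIs, and 10, 24, 16 and 7 were at or above the limit of 15% mt- UMIs. In control 2 most of the removed barcodes with both kinds of RNA were thus removed for too few UMIs or genes.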
